A study of Mus musculus with 12 samples.

Results

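What TMZ did on top of an antibody against PD-1 was examined in mouse GL261 glioblastomas by setting 3 arrays of the Combination group against 3 arrays of the Anti-PD-1 group, which are 6 of the 12 arrays of the study. The comparison ran over all 22180 genes for which the array annotation gave a probe set with exactly 1 gene symbol; of several such probe sets the one with the highest mean over the 12 arrays stood for its gene. Every animal was a male C57BL/6 mouse aged 8 weeks with GL261 cells, an established mouse glioma line, implanted in the brain, and tissue was taken on day 16. Combination animals had TMZ at 30 mg/kg into the peritoneum and the antibody at 10 mg/kg into a vein, and Anti-PD-1 animals had the antibody alone at that dose. Also used here, only to show how TMZ alone compared, were 3 arrays of TMZ (30 mg/kg) and 3 of Control animals. The antibody was injected 2 times a week. The labels state neither the dosing days, nor what Control animals received, nor whether each array came from an animal of its own, so the tests measure the spread between arrays, which may be technical. All tumours come from 1 cell line.

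TMZ is an alkylating drug that methylates DNA. Its most toxic lesion, on the oxygen of guanine, is removed by the repair protein MGMT, and where it stays, mismatch repair turns it into strand breaks that can engage p53 and stop the cell cycle. PD-1 is an inhibitory receptor of activated T cells, and its ligand PD-L1 (gene Cd274) is carried by tumour and myeloid cells. T cells that recognise their target release interferon gamma, which acts on a set of genes with GAS and ISRE elements in their promoters: guanylate-binding proteins (Gbp), immunity-related GTPases (Irg), the chemokines Cxcl9 and Cxcl10, PD-L1 and the antigen presentation machinery. Type I interferons act on an overlapping set through ISRE elements. TMZ is also toxic to dividing lymphocytes.

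The interferon and MHC lists had the 4 largest median differences of the 40 gene lists described here, with higher mean signals in Combination, although 0 single genes passed the test; without Anti-PD-1 replicate 1 the complement and scavenger list (0.24) passed MHC class I presentation (0.16). The sequences before the starts of 4 such genes are given here because the 2 DNA elements named above can be read in them: Igtp and Irgm2, a neighbouring pair of immunity-related GTPases; Gbp5, a guanylate-binding protein that helps assemble inflammasomes; and Bst2 (tetherin), which holds budding virus at the cell surface. Each stretch is the 180 bases before the gene's RefSeq start in GRCm38.p6, read on the gene's strand: chr11:58199376-58199555 (plus strand) for Igtp, chr11:58214797-58214976 (plus) for Irgm2, chr3:142496754-142496933 (plus) for Gbp5 and chr8:71537473-71537652 (minus) for Bst2. Capitals mark matches to an ISRE-type element, searched as GAAA followed after any 2 bases by GAAA on either strand (TTTC and TTTC where it lies on the other), and to a GAS-type element, TTCNNNGAA, which reads the same on both strands. Where matches overlap, their capitals run together.
Igtp: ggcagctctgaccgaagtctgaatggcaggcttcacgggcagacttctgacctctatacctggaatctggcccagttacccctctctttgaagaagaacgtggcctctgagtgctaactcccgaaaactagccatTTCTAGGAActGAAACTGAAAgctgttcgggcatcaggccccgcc
Irgm2: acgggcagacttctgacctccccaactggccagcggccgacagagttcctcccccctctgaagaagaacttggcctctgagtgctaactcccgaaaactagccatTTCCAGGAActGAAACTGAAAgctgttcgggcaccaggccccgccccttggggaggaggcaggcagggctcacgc
Gbp5: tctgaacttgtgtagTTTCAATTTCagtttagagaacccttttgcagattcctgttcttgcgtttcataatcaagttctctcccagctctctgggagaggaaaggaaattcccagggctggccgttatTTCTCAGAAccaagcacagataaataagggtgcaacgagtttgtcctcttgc
Bst2: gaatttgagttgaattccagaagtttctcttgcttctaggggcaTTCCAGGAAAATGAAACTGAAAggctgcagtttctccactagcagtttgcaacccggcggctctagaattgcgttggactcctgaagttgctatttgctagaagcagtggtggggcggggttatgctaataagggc
In Igtp the GAS-type match starts at -45 and the ISRE-type match at -34 from the start, and in Irgm2 at -75 and -64. The Igtp and Irgm2 windows share an identical run of 61 bases. Gbp5 has an ISRE-type match at -165 and a GAS-type match at -52. In Bst2 a GAS-type match at -136 overlaps an ISRE-type match at -130, which in turn overlaps another at -124.

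In windows of 250 bases before to 50 after the start, the ISRE-type element was found in 3.3% of 20611 windows of 16990 genes and the GAS-type element in 7.89%. In the interferon gamma list, 8 of 12 windows (66.7%, 10 genes) held the ISRE-type element and 5 (41.7%) the GAS-type one. In the type I interferon list 11 of 21 windows (52.4%, 19 genes) held the ISRE-type element, and in MHC class I presentation 4 of 17 (23.5%, 15 genes). In MHC class II presentation it was found in 1 of 13 windows (7.69%, 11 genes). The GAS-type element was found in 3 of the type I windows (14.3%). It was found in 1 of 17 MHC class I windows (5.88%) and 1 of 13 class II windows (7.69%), beside 7.89% of all windows. In the mitosis list the ISRE-type element was found in 1 of 27 windows (3.7%, 25 genes) and the GAS-type one in 0. These are matches of letters and not binding sites, and a window without a match shows nothing about a factor.

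Some arrays stood apart. On the principal components of all genes, the Combination arrays lay at 1.61 or above on the second, and the Anti-PD-1 arrays at -16.8 (replicate 1, the lowest of all), -1.20 and 8.14; that component held 11.1% of the variance. Control replicate 3 (-1.28) lay apart from the other Control arrays (-20.1 and -26.4) on the first, which held 26.6%, and TMZ replicate 2 lay apart on the third. Counts of called genes are given without these arrays too. For Combination minus Anti-PD-1, medians of most main lists are given without Anti-PD-1 replicate 1. For TMZ minus Control they are given without Control replicate 3, but not without TMZ replicate 2. List medians of the interaction, described below, are given with all 12 arrays only. As to the tissue, neuron (9.90), astrocyte (8.93) and oligodendrocyte markers (8.34) had mean log2 levels over the 12 arrays well above that of the median gene (5.72), glioma and progenitor markers averaged 6.85, and T cell (4.57) and natural killer cell markers (3.81) averaged less than the median gene. How much brain each tumour sample held is not stated. Neuron markers averaged between 9.87 and 9.93 in the 3 Combination arrays, against 9.92 to 9.96 in the 3 Anti-PD-1 arrays. In whole tissue, fewer cells of a type and less RNA per cell cannot be told apart.

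No gene differed between the Combination and Anti-PD-1 arrays at an adjusted p of 0.05: limma called 0 of 22180 genes (0%), and the smallest adjusted p was 0.325. An unadjusted p under 0.05 was found for 1089 genes (4.91% of all genes), 446 higher (2.01%) and 643 lower (2.9%) in Combination. The middle of the genes scarcely differed, with a median log2 difference (Combination minus Anti-PD-1) of -0.0045 and lower and upper percentiles (0.01 and 0.99 of the genes) of -0.34 and 0.34. The median standard error of a difference was 0.093. The 3 arrays of each group did not overlap for 1080 genes that were higher (4.87%) and 1257 that were lower (5.67%) in Combination.

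**Figure D1:**
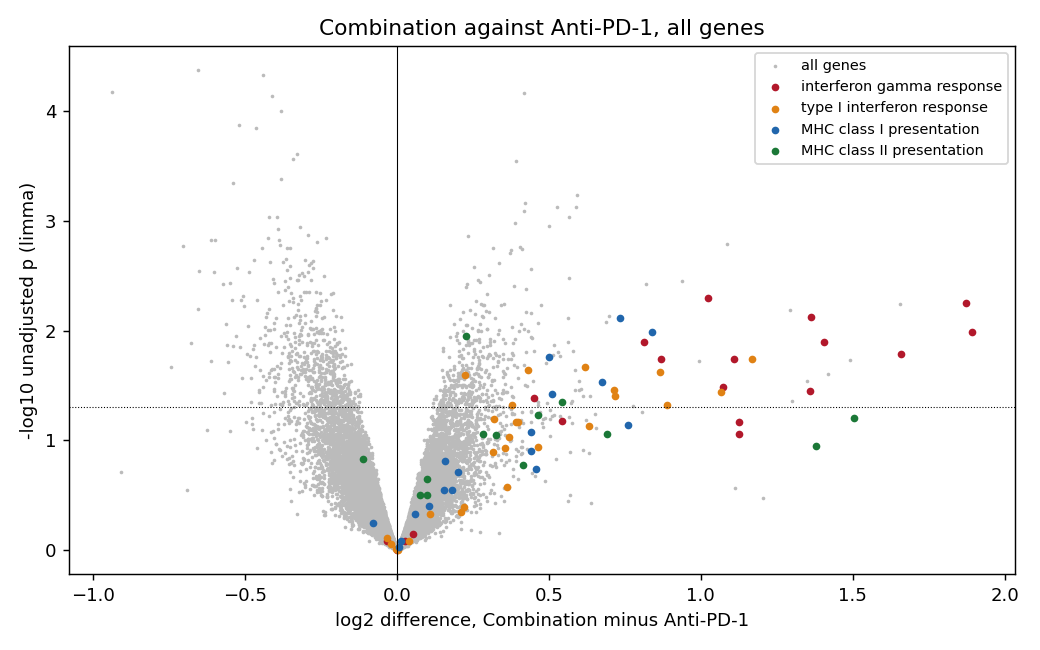
Log2 difference between the Combination and Anti-PD-1 means (horizontal axis) against -log10 of limma's unadjusted p (vertical axis) for 22180 genes, with members of 4 lists in colour; the dotted line is an unadjusted p of 0.05. The coloured points of the interferon gamma list reach furthest to the right, up to 1.89, and no gene passed after adjustment.

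A log2 difference of 1 or more, that is at least a doubling of the signal, was found in 25 genes, and all of them were higher in Combination (0.113% of all genes); 0 genes were lower by as much. Of these, 15 belong to the interferon and MHC lists, 18 had arrays that did not overlap, and 8 lie on chromosome 5, 5 on chromosome 18 and 4 on chromosome 11. The count is a description of a set picked by its values. It depended most on Anti-PD-1 replicate 1: without that array 13 genes were higher and 3 lower by that much, and without any of the other arrays of these groups in turn 19 to 34 were higher and 0 to 2 lower.

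Among the immunity-related GTPases, which disrupt the vacuoles of intracellular pathogens, Igtp (probe set 17249980) had log2 signals of 7.35, 7.73 and 7.89 in the Combination arrays, against 4.50, 5.98 and 6.82 in the Anti-PD-1 arrays. The groups did not overlap, and the lowest value by far was that of Anti-PD-1 replicate 1. The means of 7.66 ± 0.28 and 5.77 ± 1.18 (SD, n = 3 each) differed by 1.89 ± 0.62 (log2, SE), a 3.71-fold higher signal, at an adjusted p of 1. Without 1 array at a time the difference lay between 1.26 and 2.42. Irgm2 stood between 6.73 and 7.07 in the Combination arrays and at 5.13, 5.40 and 6.19 in the Anti-PD-1 arrays, again without overlap and with the Anti-PD-1 arrays the more scattered (difference 1.36 ± 0.42). Iigp1 was higher by 1.87 ± 0.55 and Irgm1, which restrains the other members of the family, by 0.87 ± 0.32, both without overlap.

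The guanylate-binding proteins were likewise higher in Combination, in 8 of the 9 measured members. Gbp3 had log2 signals of 5.77, 6.14 and 6.14 in Combination and 4.61, 4.85 and 5.52 in Anti-PD-1 arrays. The groups did not overlap, and the difference was 1.02 ± 0.30 (95% interval 0.37 to 1.67). Gbp5 stood at 4.96, 5.47 and 5.27 in Combination and at 3.86, 3.86 and 4.64 in Anti-PD-1 arrays, a difference of 1.11 ± 0.40. Gbp10 (1.66 ± 0.59), Gbp4 (1.07 ± 0.44) and Gbp7 (0.81 ± 0.28) were higher without overlap as well, and Gbp9 with it (0.54 ± 0.27). Gbp6 was not higher, at 3.03 ± 0.22 in Combination and 3.07 ± 0.17 in Anti-PD-1 (SD, n = 3 each; difference -0.03 ± 0.15). The Gbp and Irg genes hold near-identical copies, so probes of one may read another, and their differences are not independent of each other.

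The chemokines that draw activated T cells through the receptor CXCR3 differed among themselves. Cxcl9 had 6.54, 7.19 and 7.08 in Combination and 5.10, 5.67 and 6.66 in Anti-PD-1 arrays. Here the highest Anti-PD-1 array passed the lowest Combination array, and the difference of 1.13 ± 0.56 had an interval from -0.10 to 2.35. Cxcl10 had 5.78, 6.98 and 6.42 in Combination and 4.74, 5.45 and 5.61 in Anti-PD-1 arrays, with no overlap and a difference of 1.13 ± 0.60. Cxcl11, at 4.55 ± 0.17 in Combination and 4.50 ± 0.27 in Anti-PD-1, was close to level (0.05 ± 0.14), as were the interferon gamma targets Socs1, a feedback inhibitor of the pathway (0.03 ± 0.12), and Ido1, which degrades tryptophan (95% interval of the difference -0.20 to 0.20). The transcription factor Irf1, which carries the interferon gamma signal to later genes, stood at 5.83, 6.03 and 6.10 in Combination and 5.41, 5.66 and 5.53 in Anti-PD-1. It did not overlap, but its difference was smaller, at 0.45 ± 0.20.

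Of the interferon gamma list as a whole, 17 of 19 measured genes had a higher mean in Combination (47.8% of all genes had), 13 did not overlap and were higher (4.87% of all genes), 0 did not overlap and were lower, and 0 were called. The median log2 difference of its members was 1.07, against -0.0045 for all genes. Without Anti-PD-1 replicate 1 it was 0.77, and without any other of the 6 arrays no higher than 1.30. That array was the lowest of the 6 in 14 of the 19 genes.

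**Figure D2:**
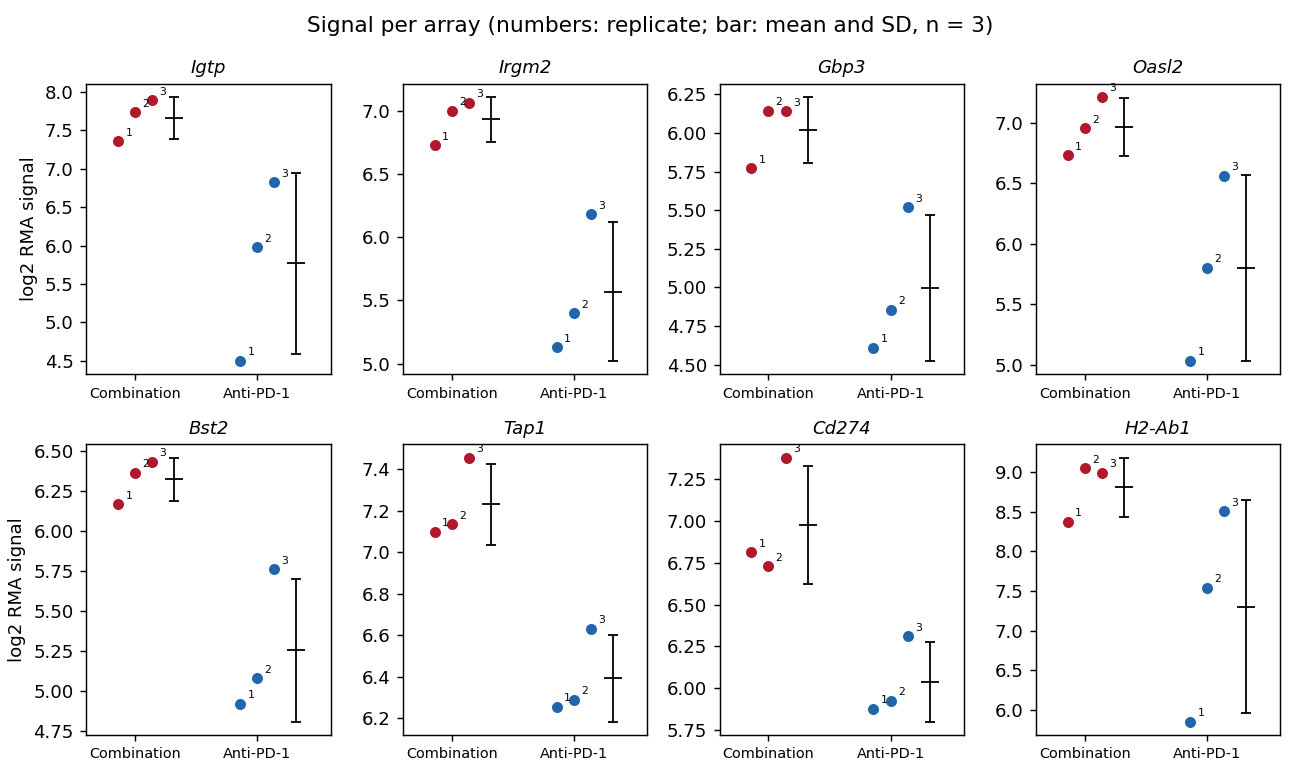
Log2 RMA signal (vertical axis) of 8 genes in each Combination and Anti-PD-1 array; numbers give the replicate, and bars the mean and SD of 3 arrays. Anti-PD-1 replicate 1 lies lowest of the 6 arrays in all 8 genes; H2-Ab1 is the 1 gene of the 8 whose groups overlap.

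Type I interferon genes had a smaller median difference. Oasl2, of the oligoadenylate synthetase family of antiviral enzymes, had log2 signals of 6.73, 6.95 and 7.22 in Combination and 5.03, 5.80 and 6.56 in Anti-PD-1 arrays. The groups did not overlap, and the difference was 1.17 ± 0.42, a 2.25-fold higher signal. Bst2 stood at 6.17, 6.36 and 6.43 in Combination and at 4.92, 5.08 and 5.76 in Anti-PD-1 arrays, also without overlap (1.07 ± 0.45). Isg15, a ubiquitin-like modifier, was higher by 0.62 ± 0.23, Zbp1, a sensor of Z-form nucleic acids, by 0.86 ± 0.33, and Irf9, a part of the factor that binds ISRE elements, by 0.43 ± 0.16, each without overlap. Ifitm3, which blocks virus entry, had 8.15, 8.42 and 8.41 in Combination and 7.28, 7.41 and 8.16 in Anti-PD-1, where the highest Anti-PD-1 array just passed the lowest Combination array (0.71 ± 0.30). Ifit3 was level (-0.02 ± 0.14). Of 27 measured members 24 were higher, 15 of them without overlap (4.87% of all genes), 0 were lower without overlap (5.67% of all genes), and 0 were called. The median difference was 0.37, and 0.29 without Anti-PD-1 replicate 1, which was the lowest array in 20 of the 27.

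Antigen presentation followed the same order of arrays. Tap1, a subunit of the transporter that brings peptides to MHC class I, had 7.10, 7.14 and 7.46 in Combination and 6.25, 6.29 and 6.63 in Anti-PD-1 arrays. These groups were well separated and about equally tight, and the difference was 0.84 ± 0.27. Its partner Tap2 (0.50 ± 0.18), the non-classical class I gene H2-T23 (0.73 ± 0.23) and the immunoproteasome subunit Psmb8 (0.68 ± 0.27) did not overlap either. B2m, the light chain of class I molecules, was among the brightest genes, at 11.24, 11.32 and 11.54 in Combination and 10.46, 10.92 and 11.19 in Anti-PD-1, and differed by 0.51 ± 0.22. Nlrc5, the class I transactivator, overlapped (0.44 ± 0.27). Of 18 measured members 17 were higher, 10 without overlap (4.87% of all genes); the median was 0.32, and 0.16 without Anti-PD-1 replicate 1.

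Among class II genes, H2-Ab1 had 8.37, 9.05 and 8.99 in Combination and 5.85, 7.54 and 8.50 in Anti-PD-1 arrays. It had one of the largest differences of all genes (1.50 ± 0.73), but the Anti-PD-1 arrays spread over more than 2 log2 units and reached into the Combination range. The transactivator Ciita, at 5.75, 5.70 and 5.78 in Combination and 5.45, 5.52 and 5.59 in Anti-PD-1, differed by far less (0.23 ± 0.07) and did not overlap. Of 13 measured class II members 12 were higher, 3 of them without overlap (4.87% of all genes), with a median of 0.33, and Anti-PD-1 replicate 1 was lowest in 11. Taking the 4 lists of interferon and MHC genes as 1 set of 77 genes, 70 were higher in Combination, 41 did not overlap and were higher, 0 did not overlap and were lower, and the median was 0.43. Of the other 22103 genes, 1039 did not overlap and were higher and 1257 did not overlap and were lower, with a median of -0.0048. The 77 genes are not independent of each other, and their counts are not given without Anti-PD-1 replicate 1. Without that array the class II median was 0.24. Limma's unadjusted p was under 0.05 for 29 of the 77 genes. With the neuron covariate, a fit described with the brain cell markers, it was so for 0 members of each of the 4 lists.

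Another 10 genes with a difference of 1 or more stood outside those lists, and some of them are given here. The lists do not hold whole gene families: Oas1g, of the same family as Oasl2, stood outside them. A place outside the lists therefore does not mean that a gene is unrelated to interferon. Gm12250 (1.65 ± 0.49) lies on chromosome 11, as do Igtp and Irgm2. Gm4951 (1.42 ± 0.55), F830016B08Rik (1.35 ± 0.54), Gm4841 (1.30 ± 0.58) and BC023105 (1.09 ± 0.27) lie on chromosome 18, as does Iigp1. Gpnmb, a glycoprotein of lipid-laden macrophages and of glioma-associated myeloid cells, had 6.32, 7.98 and 6.85 in Combination and 5.09, 5.82 and 5.75 in Anti-PD-1 arrays, without overlap (1.49 ± 0.55). Lilrb4a, an inhibitory receptor of myeloid cells, was higher by 1.13 ± 0.55, and Oas1g, an oligoadenylate synthetase, by 1.29 ± 0.39. The pituitary hormone genes Gh and Prl owed their place to 1 array: Gh had 8.62, 6.15 and 4.79 in Combination and 5.31, 5.18 and 5.46 in Anti-PD-1, and without Combination replicate 1 its difference was 0.15, and that of Prl 0.38. Whether pituitary tissue was in that sample was not tested.

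**Figure D3:**
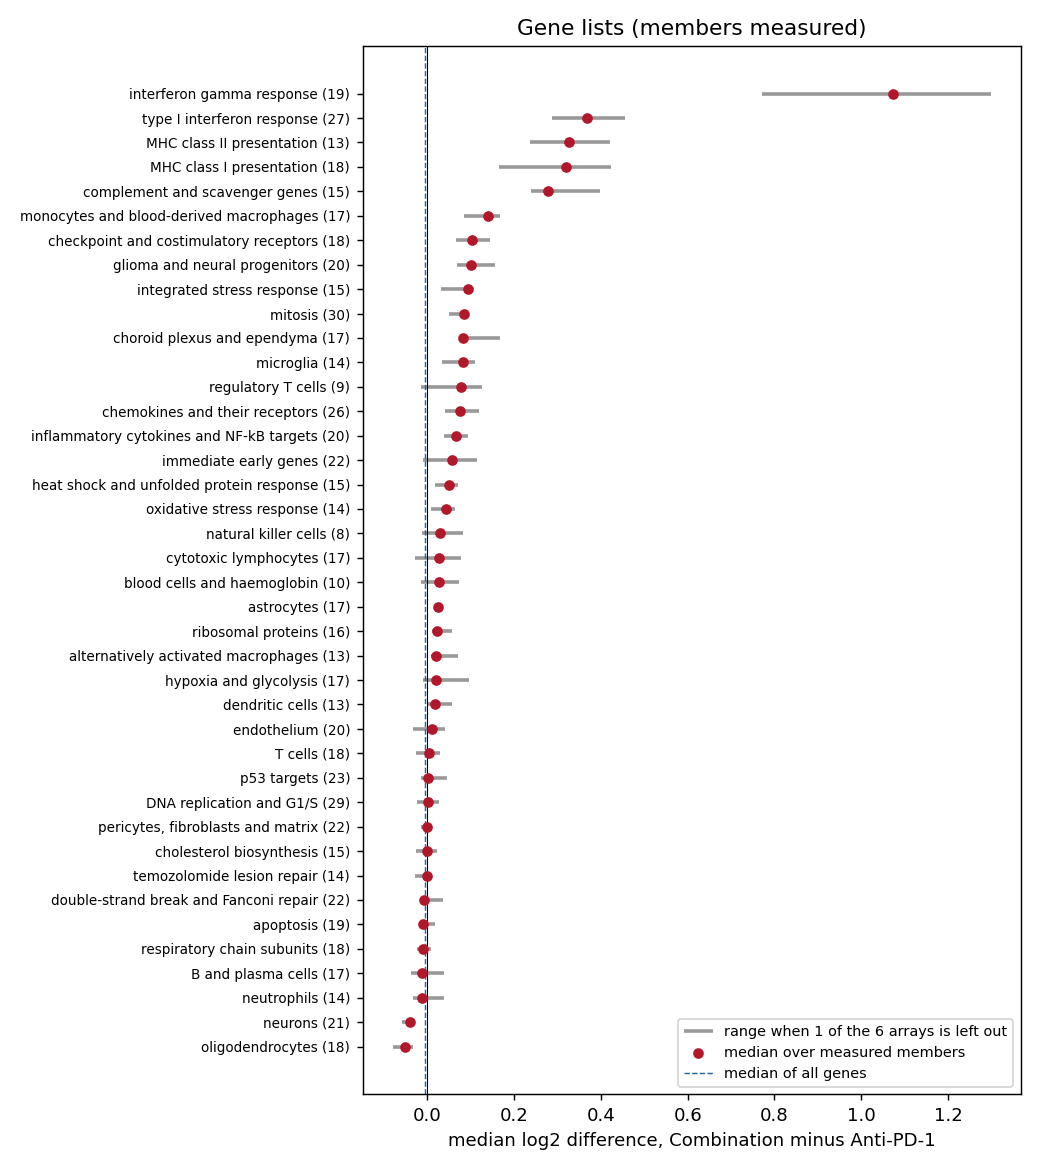
Median log2 difference, Combination minus Anti-PD-1, of the measured members of 40 gene lists (points, with the number of members after each name); grey lines span the medians when 1 of the 6 arrays is left out, and the dashed line is the median of all genes. The interferon gamma list lies furthest to the right at 1.07, and the cell cycle, p53 and repair lists lie near 0.

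The gene of PD-L1 had a higher mean in Combination. Cd274 had log2 signals of 6.81, 6.73 and 7.38 in Combination and 5.88, 5.92 and 6.31 in Anti-PD-1 arrays. The groups did not overlap, and the difference of 0.94 ± 0.26 (1.91-fold; 95% interval 0.37 to 1.50) stayed between 0.73 and 1.07 when 1 array at a time was left out, with an adjusted p of 1. The costimulatory receptor gene Tnfrsf9 (4-1BB), at 4.85, 4.85 and 4.99 in Combination and 4.60, 4.60 and 4.70 in Anti-PD-1, was higher by 0.26 ± 0.09. Pdcd1, the gene of PD-1 itself, overlapped (0.17 ± 0.17). Of the 18 checkpoint and costimulatory genes 16 were higher, 3 without overlap (4.87% of all genes), with a median of 0.10, and of 0.07 without Combination replicate 3.

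T cell genes gave no such picture, at levels below the median gene. Cd8a had 4.12, 4.18 and 4.39 in Combination and 4.12, 4.17 and 4.42 in Anti-PD-1 arrays, nearly the same values (difference -0.01 ± 0.10, interval -0.22 to 0.21). Ifng had 4.58, 4.53 and 4.53 in Combination and 4.43, 4.64 and 4.32 in Anti-PD-1, an overlap, with a difference of 0.08 ± 0.08. Gzmb, the granzyme B gene, also overlapped (-0.09 ± 0.23), and so did Foxp3, the regulatory T cell factor (-0.14 ± 0.17). Of the T cell list 9 of 18 genes were higher and 9 lower, with a median of 0.00; Cd8b1 was lower without overlap (-0.27 ± 0.11), and Cd2 higher with overlap (0.27 ± 0.10). Among cytotoxic genes, Prf1 (perforin, -0.23 ± 0.10) and Fasl (-0.19 ± 0.08) were lower and Cst7 (0.64 ± 0.27) and Klrd1 (0.21 ± 0.09) higher, each without overlap, and the median of 17 was 0.03. Cst7 is also a gene of activated microglia. In the B cell list, Cd79a was higher (0.30 ± 0.08) and its partner chain Cd79b lower (-0.28 ± 0.12), Ms4a1 (CD20) stood at 0.04 ± 0.07, and the median of 17 was -0.01.

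Of the myeloid lists, those of microglia, monocytes with macrophages, and complement and scavenger genes had medians above that of all genes (-0.0045), and the neutrophil list had not. Of 14 microglia genes 11 were higher (47.8% of all genes), 3 without overlap (4.87%), with a median of 0.08, and of 0.03 without Combination replicate 3. The homeostatic receptor P2ry12 had 7.59, 7.57 and 7.77 in Combination and 7.57, 7.53 and 7.60 in Anti-PD-1, which overlapped (0.08 ± 0.09), while the lipid receptor Trem2, with 7.18, 7.20 and 7.18 in Combination and 6.98, 6.92 and 7.04 in Anti-PD-1, did not (0.20 ± 0.11). Of 17 monocyte and macrophage genes 11 were higher, with a median of 0.14, and of 0.08 without Anti-PD-1 replicate 1; Plac8 (0.34 ± 0.10) and Ms4a4c (0.53 ± 0.19) did not overlap, Ly6c2 did (0.37 ± 0.32), and F10 was lower (-0.36 ± 0.12). Complement and scavenger genes had a median of 0.28 over 15 members, 12 of them higher; the integrin chain Itgb2 was higher without overlap (0.47 ± 0.14), and C4b with it (0.65 ± 0.31). With the mean neuron level as a covariate, a fit described with the brain cell markers, the medians were 0.01 for microglia, -0.10 for monocytes and macrophages and 0.08 for complement and scavenger genes, so that the monocyte value changed sign. Neutrophil genes had a median of -0.01 over 14, and S100a8 was lower without overlap at a level near the floor of the array, 2.48 ± 0.03 in Combination and 2.80 ± 0.18 in Anti-PD-1 (SD, n = 3 each).

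The genes that TMZ acts through in its textbook account differed little between the Combination and Anti-PD-1 arrays. Without the antibody, for TMZ minus Control, the medians of these lists were near 0 too. The median was -0.02 for p53 targets (10 higher, 13 lower, 1 called) and 0.01 for the repair of TMZ lesions (8 higher, 6 lower, 0 called). The p53 target Cdkn1a, which encodes the cell cycle inhibitor p21, had 7.53, 7.56 and 7.54 in Combination and 7.49, 7.67 and 7.48 in Anti-PD-1 arrays. These overlapped, and the 95% interval of the difference, -0.27 to 0.26, bounds it well under a doubling in either direction. Mdm2, the p53 inhibitor that p53 itself induces, had an interval from -0.13 to 0.13. Of 23 p53 targets 14 were higher and 9 lower, 0 without overlap (10.5% of all genes did not overlap), with a median of 0.00 and differences from -0.16 to 0.16.

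Repair genes had medians near 0 as well, with a wider range among the break repair genes. Mgmt had 4.90, 4.92 and 4.60 in Combination and 4.81, 4.99 and 4.95 in Anti-PD-1, an overlap with a difference of -0.11 ± 0.10. The mismatch repair gene Msh6 differed by 0.01 ± 0.08. Of 14 genes for the repair of TMZ lesions 7 were higher and 7 lower, with a median of 0.00. Of 22 genes of double-strand break and Fanconi repair 13 were lower, with a median of -0.01 and differences from -0.40 to 0.21. In that list 2 genes were higher without overlap (4.87% of all genes) and 2 lower (5.67%), and 3 had an unadjusted p under 0.05, all lower (2.9% of all genes). Those were Bard1, the partner of BRCA1, which overlapped (-0.40 ± 0.13), and Fancd2 (-0.26 ± 0.09) and Rad51c (-0.20 ± 0.08), which did not.

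Genes of cell division were at or slightly above the Anti-PD-1 level. Mki67, the Ki-67 gene, had 5.44, 5.51 and 5.56 in Combination and 5.24, 5.43 and 5.47 in Anti-PD-1 arrays, an overlap (0.12 ± 0.20). Top2a, topoisomerase II alpha, had 4.69, 5.29 and 5.11 in Combination and 4.37, 4.45 and 4.56 in Anti-PD-1, without overlap, with an interval of the difference from -0.03 to 1.16. Ccna2, the cyclin A gene, had 5.17, 5.25 and 5.13 in Combination and 4.86, 4.84 and 4.83 in Anti-PD-1, without overlap (0.34 ± 0.17). Of 30 mitosis genes 21 were higher, 5 without overlap (4.87% of all genes), and 0 were lower without overlap (5.67%); the median was 0.09, and 0.05 without Anti-PD-1 replicate 1. Of 29 replication genes 15 were higher and 14 lower, with a median of 0.00. In 20 glioma and progenitor genes 15 were higher, 8 without overlap (4.87% of all genes) and 1 lower without it (5.67%), with a median of 0.10. That median was 0.15 without Anti-PD-1 replicate 3 and changed sign to -0.01 with the neuron covariate; Mycn (0.24 ± 0.11) and Ccnd2 (0.20 ± 0.09) were the members with the smallest p.

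Of brain cell markers, 18 of 21 neuron genes were lower in Combination, 1 without overlap (5.67% of all genes), with a median of -0.04, which lay between -0.06 and -0.03 without 1 array at a time. Of 18 oligodendrocyte genes 14 were lower, 3 without overlap, with a median of -0.05, which lay between -0.08 and -0.03 without 1 array at a time. Snap25 had 12.24, 12.15 and 12.20 in Combination and 12.24, 12.31 and 12.28 in Anti-PD-1, and overlapped (-0.08 ± 0.06), as did the myelin gene Mbp (-0.04 ± 0.07). Vim, an intermediate filament of glioma cells and reactive astrocytes, overlapped too (0.30 ± 0.23). Astrocyte markers did not go the way of the neuron and oligodendrocyte lists. Of 17 astrocyte genes 12 were higher, 3 without overlap (4.87% of all genes), and 0 were lower without overlap (5.67%), with a median of 0.03. Endothelial (0.01) and pericyte with matrix lists (0.00) had medians close to 0. With the mean level of the neuron list as a covariate in the fit, the median difference of the interferon gamma list was 0.37, of the type I list 0.10, of MHC class I 0.05, of class II 0.15 and of mitosis -0.10, and 0 genes were called. The mean neuron level was 9.89 in Combination and 9.94 in Anti-PD-1, and its part in the differences was not tested beyond this fit.

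The genes with the smallest unadjusted p among those without overlap all missed the threshold. Higher in Combination were Tlr13, a sensor of bacterial ribosomal RNA in mouse myeloid cells (0.59 ± 0.13), the adaptor of immune receptors Lcp2 (0.32 ± 0.08), the sterol-sensing receptor Nr1h3 (LXR alpha, 0.41 ± 0.10), the laminin receptor chain Itga6 (0.23 ± 0.06), coagulation factor F5 (0.53 ± 0.12), the adhesion molecule Ceacam2 (0.42 ± 0.09), the lysine-degrading enzyme Aass (0.42 ± 0.09), Rpl37 (0.40 ± 0.10), Esp38 (0.39 ± 0.08) and BC023105 (1.09 ± 0.27). Tlr13 had 5.20, 5.10 and 5.36 in Combination and 4.51, 4.59 and 4.78 in Anti-PD-1, well apart, with an adjusted p of 0.925. Lower in Combination were the serine protease Prss55 (-0.44 ± 0.07), the tuft cell factor Pou2f3 (-0.33 ± 0.06), the repressor Msc (-0.40 ± 0.09), the lymphocyte growth factor Il7 (-0.32 ± 0.07), the lymphoid AP-1 factor Batf (-0.23 ± 0.06), Zgrf1 (-0.39 ± 0.09), Atcayos (-0.30 ± 0.07), Cks1brt (-0.43 ± 0.10), Tktl1 (-0.39 ± 0.09) and Zfp872 (-0.60 ± 0.15). Prss55 had 3.50, 3.44 and 3.57 in Combination and 4.06, 3.81 and 3.97 in Anti-PD-1, also apart, with limma's adjusted p at 0.325. The 20 genes with the smallest unadjusted p among all genes are not the same set as those named here, but share members with it, such as Prss55. Only 7 of those 20 are of a class that the naming rule allows. Of the same 20 genes, 18 had mean levels below that of the median gene.

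Whether TMZ acted differently with the antibody than without it was tested by setting the difference Combination minus Anti-PD-1 against the difference TMZ minus Control, which share no array. Most interferon, MHC and mitosis genes had a higher mean in Combination than in Anti-PD-1 and a lower one in TMZ than in Control. The mean of the interferon gamma list was 5.69, 6.16 and 6.11 in the Combination arrays and 4.64, 5.03 and 5.49 in the Anti-PD-1 arrays. It was 6.12, 5.19 and 5.53 in the TMZ arrays and 6.52, 6.96 and 5.61 in the Control arrays. The 3 Combination arrays thus lay above the 3 Anti-PD-1 arrays, and within the range of the TMZ and Control arrays together, while TMZ and Control arrays overlapped through Control replicate 3. The median difference of its members was 1.07 for Combination minus Anti-PD-1 and -0.72 for TMZ minus Control. Without Control replicate 3 the second of these was -1.21. Its value without TMZ replicate 2, the lowest TMZ array here, is not given.

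**Figure D4:**
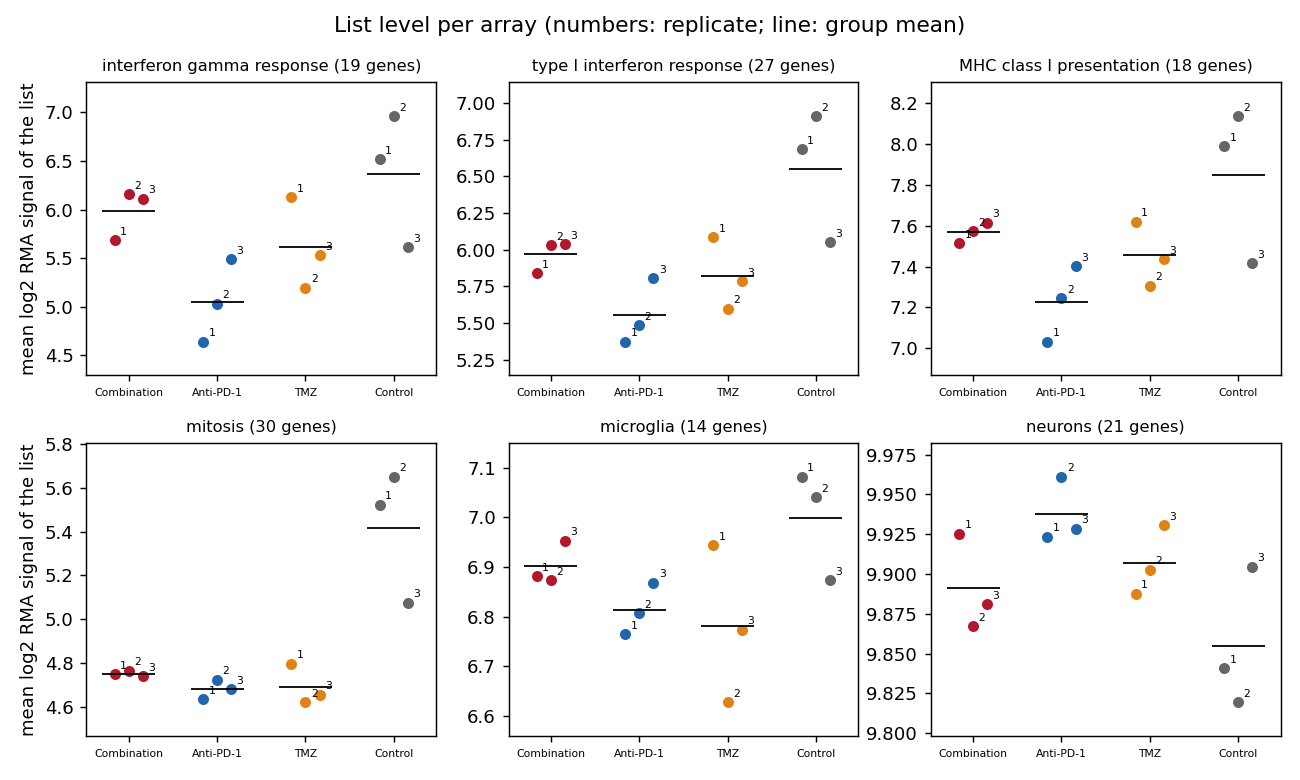
Mean log2 RMA signal of 6 gene lists (vertical axes) in each of the 12 arrays; numbers give the replicate and lines the group means. Interferon gamma genes average 5.99 in Combination and 5.05 in Anti-PD-1, against 5.62 in TMZ and 6.36 in Control, and mitosis genes 4.75 in Combination and 4.68 in Anti-PD-1, against 4.69 in TMZ and 5.42 in Control.

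For the type I interferon list the median differences were 0.37 with the antibody and -0.66 without it, and for MHC class I 0.32 and -0.37. In the mitosis list they were 0.09 and -0.69, and in DNA replication 0.00 and -0.30. Without Control replicate 3 the TMZ minus Control medians were -0.60 for MHC class I, -0.88 for mitosis, -0.39 for replication and -0.87 for type I interferon genes. Between TMZ and Control limma called 22 genes (0.0992%), 3 of them mitosis genes. That count did not hold: it was 363 without Control replicate 3, 0 without Control replicate 2, without TMZ replicate 2 or with the neuron covariate, 4 with the replicate block, and 1 to 7 without any 1 of the other 9 arrays. Of the 30 mitosis genes, 27 were lower in TMZ without overlap (6.81% of all genes were) and 0 higher (8.19%). Bst2, at 6.32 ± 0.14 in Combination and 5.25 ± 0.45 in Anti-PD-1, had 6.77, 5.53 and 6.07 in TMZ and 8.05, 8.75 and 6.65 in Control arrays. Moxd1, a monooxygenase gene, had 6.31, 7.02 and 6.23 in Combination and 5.70, 6.19 and 6.10 in Anti-PD-1 arrays. It had 6.51, 5.79 and 5.73 in TMZ and 8.91, 9.43 and 7.99 in Control arrays, so that Control alone stood high.

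**Figure D5:**
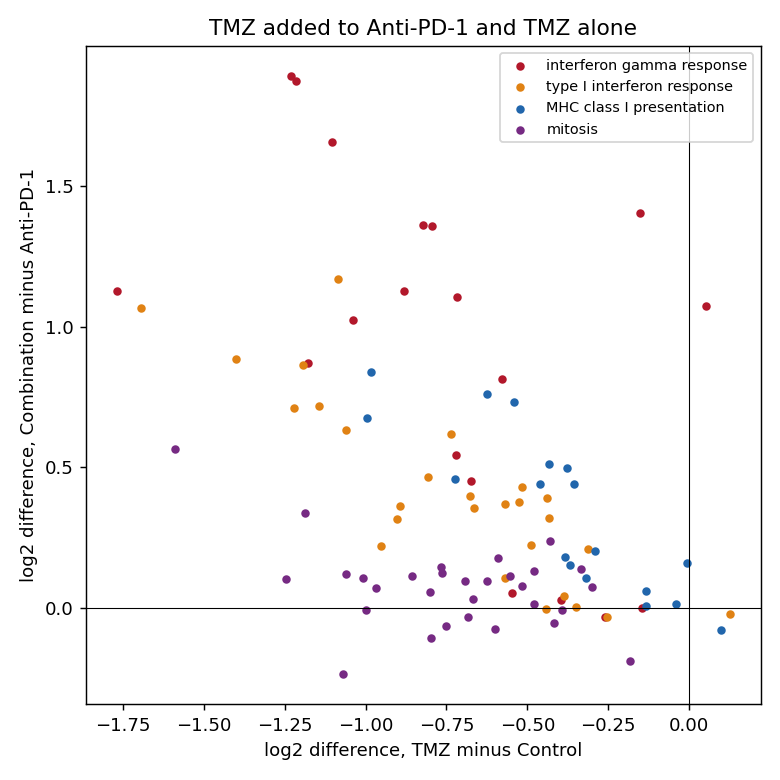
Log2 difference TMZ minus Control (horizontal axis) against Combination minus Anti-PD-1 (vertical axis) for the members of 4 lists; each point is a gene. Interferon gamma genes lie mostly in the upper left, with medians of -0.72 and 1.07, and mitosis genes lie to the left near the horizontal zero line, with medians of -0.69 and 0.09.

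Across all genes the difference of these differences, the interaction, was called for 1 gene of 22180 (0.00451%): 3830403N18Rik on chromosome X, a gene with no established role, named here after its value was seen. It had 3.19, 3.02 and 2.95 in Combination and 2.67, 2.66 and 2.72 in Anti-PD-1 arrays, and 2.96, 2.75 and 2.77 in TMZ and 3.96, 3.76 and 3.65 in Control arrays. Combination lay above Anti-PD-1 and TMZ below Control, both without overlap, at levels near the floor of the array. The interaction was 1.33 ± 0.13 (limma's adjusted p = 0.00909), and limma's adjusted p ranged from 0.00351 to 0.508 over the alternatives. The next genes that the naming rule gives, Car6 (1.36 ± 0.19), a carbonic anhydrase, Stx11 (0.62 ± 0.09), a syntaxin needed for cytotoxic granule release, Moxd1 (3.29 ± 0.48), Ccna2 (1.53 ± 0.24) and Esp38 (0.69 ± 0.11), missed the threshold with adjusted p values from 0.113 to 0.137.

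An unadjusted interaction p under 0.05 was found for 16 of 19 interferon gamma genes, 21 of 27 type I interferon genes, 12 of 18 MHC class I genes and 26 of 30 mitosis genes, all with a positive sign, beside 4.65% of all genes with a positive and 4.27% with a negative sign; 0 of the members were called. The median interaction was 1.83 in the interferon gamma list, 1.02 in the type I list, 0.68 in MHC class I and 0.71 in mitosis, against -0.02 for all genes. These counts depend on Control replicate 3: without it 198 genes were called in the interaction (0.893%), 175 of them positive (0.789%), and among them were 7 interferon gamma, 15 type I interferon, 8 MHC class I and 18 mitosis genes. With the neuron level as a covariate 0 genes were called and the median interaction was 0.37 in the interferon gamma list, 0.49 in the type I list, 0.11 in MHC class I and 0.40 in mitosis. Across the 22180 genes, which are not independent of each other, the 2 differences had a Pearson correlation of -0.214, given as a description.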

How the data were processed

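The authors deposited log2 signals of 41345 probe sets on 12 Affymetrix whole-transcript mouse arrays, made by RMA in the Affymetrix Expression Console per the submitters' processing notes; no version is given in the sources used here. RMA's quantile step gives all arrays the same distribution of probe values, so a shift of most genes in 1 direction could not be seen. Values ran from 1.24 to 13.14, with array medians of 5.06 to 5.12. Arrays have no read depth, and 3 arrays per group limit the precision. The array annotation gave 1 symbol for 23521 probe sets, several for 1814 and did not list 16010; only the first entered, with the brightest probe set for each of 1082 genes that had several, which left 22180 genes and no filter on level.

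Groups were taken from the sample titles. Each gene was fitted in R 4.3.3 with limma 3.58.1 (a mean per group over all 12 arrays, 8 residual degrees of freedom, default eBayes), with Combination minus Anti-PD-1, TMZ minus Control and their difference, the interaction, as contrasts. Tests were two-sided; Benjamini-Hochberg adjustment ran over the 22180 genes, with a threshold of 0.05; ± after a difference is limma's standard error and intervals are 95%. The fit was tested on simulated data with known differences. The 40 gene lists held 785 entries, of which 710 were measured. Lists were described by counts and medians with no set test. Groups do not overlap where all 3 arrays of one lie beyond all 3 of the other.

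The members, lists and comparisons were chosen with earlier results of these data known. Named genes were drawn from, per direction, the 10 genes without overlap with the smallest unadjusted p where none passed, the 4 members of each list with the smallest p, a fixed set (among them Pdcd1, Cd274, Cd8a, Ifng, Cdkn1a, Mgmt, Mki67, Bst2, Moxd1 and Snap25) and 5 genes of the interaction; unnamed classes are predicted genes, olfactory and vomeronasal receptors, small RNAs and antigen receptor segments. Other genes, the set with a difference of 1 or more included, were chosen after their values were seen. Promoter windows are RefSeq's for GRCm38.p6. Alternatives covered the arrays and genes fitted, the variance prior, scaling, array weights, a neuron covariate, a replicate block and leaving out each array.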

Additional observations from a re-analysis of the deposited data

Results flagged for a closer look

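1 result met a rule for a difference between 2 settings of TMZ by a test of the difference itself. 3830403N18Rik differed by 1.3347 on the log2 scale between TMZ added to Anti-PD-1, where it was higher in Combination than in Anti-PD-1 (0.37 ± 0.09), and TMZ alone, where it was lower in TMZ than in Control (-0.96 ± 0.09). Limma's adjusted p was 0.00909 and was over the threshold with all probe sets tested (0.0588), with the neuron covariate (0.508) and without Anti-PD-1 replicate 1 (0.0519), Anti-PD-1 replicate 2 (0.0555) or TMZ replicate 2 (0.0516). All 3 Combination arrays lay above the 3 Anti-PD-1 arrays, and all 3 TMZ arrays below the 3 Control arrays. Groups of 3 arrays are too small for the check of single arrays far from the rest.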

How the results depend on the processing

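Between Combination and Anti-PD-1, limma called 0 genes in all 22 alternatives, with smallest adjusted p values from 0.223 to 0.873 and 949 to 1346 genes at an unadjusted p under 0.05. The interaction, with 1 gene called, gave 12 genes with a trended variance, 0 over all probe sets, 0 when genes under the median level were left out and 0 with the neuron covariate; leaving out 1 array gave 0 to 198, the highest without Control replicate 3 and 0 without Anti-PD-1 replicate 1, Anti-PD-1 replicate 2 or TMZ replicate 2. TMZ minus Control, with 22 called, gave 113 with a trended variance, 38 with array weights, 14 with a robust prior, 14 above the median level, 4 with the replicate block, 1 with all probe sets and 0 with the neuron covariate; leaving out 1 array gave 0 to 363, the highest without Control replicate 3. For that contrast the alternatives were chosen after seeing the data. The cause of these differences was not tested, beyond the fewer arrays or genes that some fits hold. With the replicate block Combination and Anti-PD-1 again differed in 0 genes, and the deviations of same-numbered arrays from their group means correlated at 0.0597, -0.000454 and 0.0329, so the numbers were not taken to pair the arrays. Of 1245 single-gene values under an alternative, 20 had the other sign, all of genes that were not called, and 0 were called for Combination minus Anti-PD-1; 41 of 399 list medians moved by more than their array spread. Signal over background limits genes of low level, among them the natural killer, neutrophil, B cell, cytotoxic and T cell lists, whose mean levels lie under that of the median gene.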

Other observations

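Lists that the comparisons above leave out had medians between -0.01 and 0.09, and 0 of their genes were called. Of 17 choroid plexus and ependymal genes 13 had a higher mean in Combination than in Anti-PD-1, 2 of them without overlap (4.87% of all genes), with a median log2 difference of 0.08, and of 0.17 without Combination replicate 1. Kl, which encodes the ageing-linked protein klotho of the choroid plexus, had 7.36, 7.53 and 7.80 in Combination and 7.15, 7.30 and 7.20 in Anti-PD-1 arrays, without overlap (0.35 ± 0.13), and Enkur, a gene of motile cilia, was higher by 0.19 ± 0.07. Of 15 genes of the integrated stress response 10 were higher, 3 without overlap (4.87% of all genes), with a median of 0.09, which was lower without any 1 of the 6 arrays and reached 0.03 without Anti-PD-1 replicate 1; the stress-induced gene Nupr1 (0.34 ± 0.15) and the cystine transporter Slc7a11 (0.21 ± 0.07) were among them. Medians were small for immediate early genes (0.06, 17 of 22 higher), hypoxia genes (0.02, 10 of 17) and ribosomal protein genes (0.02, 11 of 16). They were small too for cholesterol synthesis (0.00, 7 of 15) and respiratory chain genes (-0.01, 5 of 18 higher). Of all genes 47.8% were higher. The immediate early median lay between -0.01 and 0.11 without 1 array at a time.

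Vessel genes went both ways, with Acta2 and Ly6c1 among the lower ones. Acta2, the smooth muscle actin of vessel walls, had 7.20, 6.88 and 7.10 in Combination and 7.45, 7.26 and 7.36 in Anti-PD-1 arrays, without overlap (-0.30 ± 0.10). The endothelial gene Ly6c1 was lower with overlap (-0.57 ± 0.24), at 3.37 ± 0.45 in Combination and 3.94 ± 0.28 in Anti-PD-1 (SD, n = 3 each). Those levels lie well below that of the median gene (5.72). Of 20 endothelial genes 11 were higher, 2 without overlap (4.87% of all genes), and 1 was lower without overlap (5.67%). Of 22 genes of pericytes, fibroblasts and matrix 11 were higher and 11 lower, with 1 in each direction without overlap. The medians of the endothelial and pericyte lists were 0.01 and 0.00.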
